A study of Homo sapiens with 12 samples.

Results

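ZNF genes encode C2H2 zinc finger proteins, in which short repeats fold around a zinc ion and read DNA bases. Many of them also carry a KRAB box, which recruits the corepressor TRIM28 (KAP1) and through it the histone methyltransferase SETDB1, so that the bound DNA is packed into silent chromatin. TRIM28 and several of its partners are themselves modified by SUMO, a small protein that is joined to other proteins, and SUMO helps to recruit SETDB1. Many of the genes lie in runs of relatives, many of these on chromosome 19, and are known targets of the same silencing machinery in many cell types.

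The genes described here are the 230 expressed ZNF genes of HL-60, an established acute myeloid leukemia (AML) line. They were chosen by symbol (ZNF, a number and at most 1 letter, without ZNF451) and by a mean of at least 200 normalized counts over the 3 DMSO libraries, out of 493 such symbols with at least 1 read. Cells were treated for 3 h with daunorubicin and ML-792 together (ML-792+DNR), with daunorubicin (DNR) or ML-792 singly, or with the vehicle DMSO, at 1 µM for DNR and 0.5 µM for ML-792 in each case. DNR is an anthracycline that intercalates into DNA and poisons topoisomerase II, and ML-792 blocks the E1 enzyme of the SUMO pathway. Polyadenylated RNA was sequenced in 3 replicates per group, which per the study's methods were independent experiments, so the p-values below measure the spread between replicate cultures of 1 cell line. In bulk RNA, fewer cells with a transcript and less of it per cell cannot be told apart, and each level is relative to the other genes of the library.

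Libraries held 28.6 to 46.5 M (mega) reads in genes, of which mitochondrial transcripts took 4.01% to 6.37% in the replicate 1 libraries and 2.49% to 3.48% in replicates 2 and 3. All 8 myeloid markers averaged at least 1 CPM (counts per 1 M reads in genes), with summed levels of 10754 to 14606 CPM. Marker levels are on unscaled library sizes, and the CPM of single genes below is on library sizes scaled by edgeR's TMM factors. Summed lymphocyte markers were at 0.281 to 0.838 CPM, erythroid markers at 0.474 to 1.26 CPM, and stromal and epithelial markers at 1.56 to 3.11 CPM. Of the 5 stromal and epithelial markers, 1 averaged at least 1 CPM. CD3E and MS4A1 were at 0 in every library, as were HBB and HBA1, and COL1A2 and EPCAM. The lists' part in the results was not tested.

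DMSO levels of the members spanned 200.3 to 13315 normalized counts with a median of 747, and 68 members were under 500 and 31 over 2000. Just inside the threshold were ZNF543 (209.7 normalized counts in DMSO), ZNF235 (206.2) and ZNF546 (200.3), and just outside were ZNF773 (197.3), ZNF181 (196.1) and ZNF324B (191.6). These DMSO values chose the members, so the comparisons with DMSO share values with the choice, whereas ML-792+DNR against DNR and against ML-792 do not. The interaction test below also uses the DMSO libraries and so shares values with the choice. A choice by the mean over all 12 libraries gave 229 genes, 225 of them shared. All 230 members passed the filter on low counts and were among the 13696 genes tested. Only 9120 genes of the series had a DMSO mean of at least 200. Shares and correlations over all genes tested therefore include many genes at lower levels than the members. The part of level in the differences from the members was not tested.

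The 5 most abundant members were ZNF207, ZNF146, ZNF24, ZNF22 and ZNF770. ZNF207 (BuGZ), a spindle protein that brings BUB3 to kinetochores, averaged 333 ± 30.3 CPM in ML-792+DNR, 358 ± 35.3 in DNR, 374 ± 25.5 in ML-792 and 383 ± 20.1 in DMSO (SD, n = 3 each). It passed the test in none of the 5 pairwise comparisons of the 4 groups. ZNF22, in contrast, had 112, 135 and 131 CPM in DNR, against 216, 188 and 205 CPM in DMSO, so that the groups did not overlap (log2 fold change −0.69 ± 0.10 (SE), edgeR adjusted p = 0.000173). Together the members took 0.732 ± 0.0626% of the reads in genes in ML-792+DNR, 0.782 ± 0.0442% in DNR, 0.832 ± 0.0186% in ML-792 and 0.829 ± 0.00702% in DMSO (SD, n = 3 each). Replicate 1 was the lowest in both groups with DNR, at 0.661% in ML-792+DNR, against 0.777% and 0.758% in replicates 2 and 3, and at 0.731% in DNR, against 0.809% and 0.807%. These 2 libraries also had the highest mitochondrial shares, 6.37% in ML-792+DNR and 6.27% in DNR, whose part in the result was not tested.

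A position on GRCh37 was found for 227 members, and 74 of them were on chromosome 19. In 98 members the gene was in a run of at least 4 C2H2 genes with gaps of at most 100 kb. For 223 members a protein could be translated from the annotation: it held a median of 10 C2H2 fingers, from 0 in ZNF330, ZNF839 and ZNF503 by the strict pattern used to 36 in ZNF142. A KRAB box core was found in 74 by a narrow pattern and in 102 by a wider one added after the data were seen, and both miss some KRAB proteins. The annotation places 84 members over another coding gene, and it is not stated whether reads were counted by strand, so reads of such pairs may be mixed. The symbols ZNF271P, ZNF731P, ZNF767P and ZNF252P end like those of pseudogenes.

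ML-792 alone changed few genes of any kind in 3 h, and ZNF genes were among them. A member is said below to have risen or fallen where its Benjamini-Hochberg adjusted p over all 13696 genes was below 0.05 in edgeR's quasi-likelihood test. After ML-792, 6 of 230 members (2.61%) rose against DMSO, where 0.183% of all genes tested rose. They made up 18.2% of the 33 genes that passed in either direction, while members were 1.68% of the genes tested. The 6 were ZNF274, ZNF134, ZNF10, ZNF268, ZNF140 and ZNF84. No member fell (5 at an unadjusted p below 0.05 with a fall, 1 by DESeq2, 0 by limma voom), against 0.0584% of all genes. The 18.2% holds for this fit only. DESeq2 called 6 members and 71 of all genes higher, and 1 member and 47 of all genes lower. With a replicate block edgeR called 8 members and 104 of all genes higher, and 1 member and 50 of all genes lower. No member reached 2-fold, against 0.0730% of all genes higher and 0.00730% lower by that rule. The median of the members was 0.01 on the log2 scale, beside −0.01 for all genes tested.

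ZNF274 is a KRAB protein that binds the 3′ ends of other ZNF genes and brings SETDB1 there. It had 29.7, 26.1 and 32.8 CPM in the ML-792 replicates 1 to 3, against 17.7, 14.5 and 18.2 CPM in DMSO. Every ML-792 library was above every DMSO library (log2 fold change 0.81 ± 0.13, edgeR adjusted p = 0.0166). In the presence of DNR the same step was seen in other libraries, with 20.7, 23.4 and 24.9 CPM in ML-792+DNR, against 13.6, 15.01 and 17.1 CPM in DNR. The groups again did not overlap (log2 fold change 0.60 ± 0.13, edgeR adjusted p = 0.0502, and 0.00662 with a replicate block).

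ZNF10 (KOX1) is the protein whose KRAB box is fused to catalytically dead Cas9 in CRISPR interference. It had 17.4, 12.2 and 13.1 CPM in ML-792, against 7.25, 7.09 and 8.62 CPM in DMSO. Its log2 fold change of 0.89 ± 0.16 was the largest of the members (edgeR adjusted p = 0.0330). ZNF10 had 11.7, 14.0 and 14.3 CPM in ML-792+DNR, against 7.44, 9.37 and 9.20 CPM in DNR. Both pairs of groups were separate (log2 fold change with DNR present 0.62 ± 0.16, edgeR adjusted p = 0.0888, and 0.0446 with a replicate block).

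ZNF134, a finger protein in which no KRAB box was found, had 27.0, 24.2 and 26.1 CPM in ML-792, against 16.02, 13.8 and 15.4 CPM in DMSO (log2 fold change 0.77 ± 0.14, edgeR adjusted p = 0.0409). It had 14.6, 16.8 and 21.9 CPM in ML-792+DNR, against 10.1, 12.5 and 11.7 CPM in DNR (log2 fold change 0.64 ± 0.14, edgeR adjusted p = 0.0602, and 0.0228 with a replicate block). Neither pair of groups overlapped. ZNF268, a KRAB protein with 24 fingers, had 36.5, 33.7 and 34.2 CPM in ML-792, against 25.1, 20.1 and 23.5 CPM in DMSO (log2 fold change 0.60 ± 0.10, edgeR adjusted p = 0.0298). The KRAB proteins ZNF140 and ZNF84 had smaller log2 fold changes of 0.53 ± 0.10 (edgeR adjusted p = 0.0409) and 0.55 ± 0.10 (edgeR adjusted p = 0.0458). With DNR present ZNF268, ZNF140 and ZNF84 were at 0.32 ± 0.10, 0.27 ± 0.10 and 0.37 ± 0.10, with groups that did not overlap and edgeR adjusted p of 0.208, 0.245 and 0.135 (0.0800, 0.103 and 0.0556 with a replicate block). Separate groups were common: of all 230 members, 45 did not overlap in ML-792 vs DMSO and 63 in ML-792+DNR vs DNR. Overlap was not counted over all genes.

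**Figure D1:**
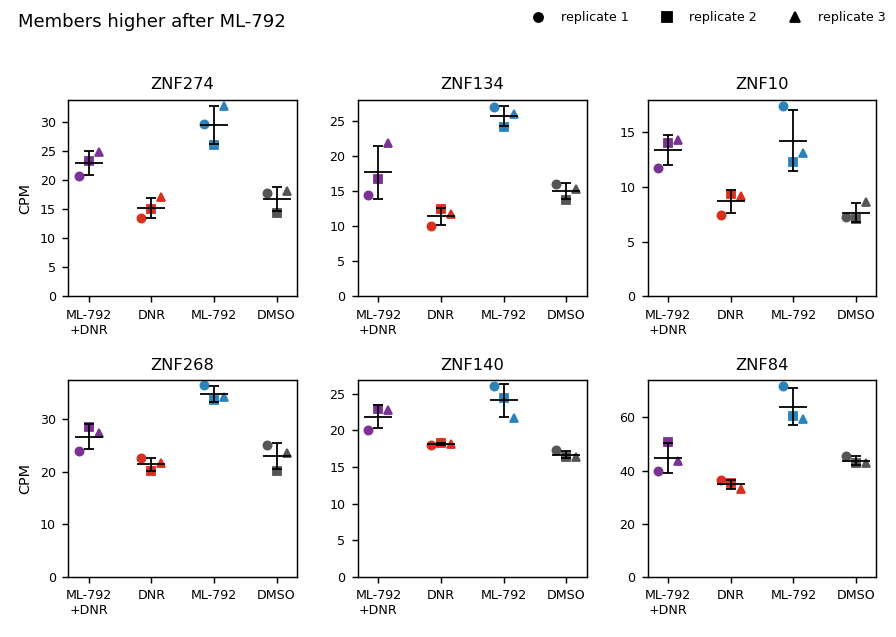
Level of the 6 members that rose after ML-792 (vertical axis, CPM) in the 4 groups, with 1 point per library, its shape giving the replicate, and the mean ± SD (n = 3) as black bars. ML-792 points lie above DMSO points in every panel, and ML-792+DNR points above DNR points, as with ZNF274 at 20.7 to 24.9 CPM in ML-792+DNR and 13.6 to 17.1 CPM in DNR.

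The adjusted p-values of these 6 sat close to the threshold, and which passed depended on single libraries, while every log2 fold change stayed above 0. The count of 6 was 0 without ML-792 replicate 1, DMSO replicate 1 or DMSO replicate 2, 1 without ML-792 replicate 2, ML-792 replicate 3 or DMSO replicate 3, and 2 without DNR replicate 3 or ML-792+DNR replicate 3. Over all genes tested the 25 that rose were 4 to 32 in the 12 fits without 1 library. Over all 12 such fits the log2 fold change of ZNF274 stayed between 0.72 and 0.89, and that of ZNF84 between 0.45 and 0.60. That of ZNF10 ran from 0.72, without ML-792 replicate 1, to 0.99. With replicates 2 and 3 only ZNF10 was at 0.69, below ZNF274 at 0.85 and ZNF134 at 0.78. With library sizes unscaled, or with replicates 2 and 3 only, no member passed. Replicate numbers paired the ML-792 and DMSO libraries (correlation of same-numbered deviations 0.432 to 0.749), and with a replicate block 8 members rose, these 6 with ZNF420 and ZNF550, and ZNF217 fell, where 0.759% of all genes rose and 0.365% fell by that fit.

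Of the 6, ZNF84, ZNF140, ZNF10 and ZNF268 are neighbours in 1 run of 7 C2H2 genes at the end of the long arm of chromosome 12 (GRCh37 chr12:133494892-133791418), and ZNF134 and ZNF274 lie in a run of 48 at the end of chromosome 19 (GRCh37 chr19:57702868-59050278). All 6 members of the chromosome 12 run were above 0 after ML-792, with a median of 0.54 and a range of 0.24 to 0.89 on the log2 scale. The lowest were ZNF605 (0.24 ± 0.10, edgeR adjusted p = 0.818) and ZNF26 (0.24 ± 0.14, edgeR adjusted p = 1), which are farthest from the chromosome end. With DNR present the 6 were again all above 0, with a median of 0.29. The seventh gene, ZNF891, was too low in DMSO to be a member and had a log2 fold change of 0.72 after ML-792 (edgeR adjusted p = 0.1096). The annotation has ZNF891 over ZNF140, and an unnamed coding gene over both ZNF10 and ZNF268.

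The other genes tested within 500 kb of the run did not show this step. They were FBRSL1, POLE, PXMP2, PGAM5, ANKLE2, GOLGA3 and CHFR, and their log2 fold changes after ML-792 were −0.11 to 0.09 with a median of −0.03 and none past the test (0 of 7 by edgeR). CHFR, a mitotic checkpoint ubiquitin ligase whose annotated span covers nearly all of ZNF605 on the same strand, was nearly silent at 0.533 CPM in DMSO. In the chromosome 19 run the 19 members were less uniform: 11 were above 0, the median was 0.10 and the range −0.14 to 0.81. Another chromosome 19 run (GRCh37 chr19:36673178-38307940) had all 8 of its members above 0 after ML-792 alone, with a median of 0.29 and a highest value of 0.41, and none passed the test. With DNR present 3 of these 8 were above 0, with a median of −0.05. These runs were picked for description after their values were seen, and no test of position was made.

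**Figure D2:**
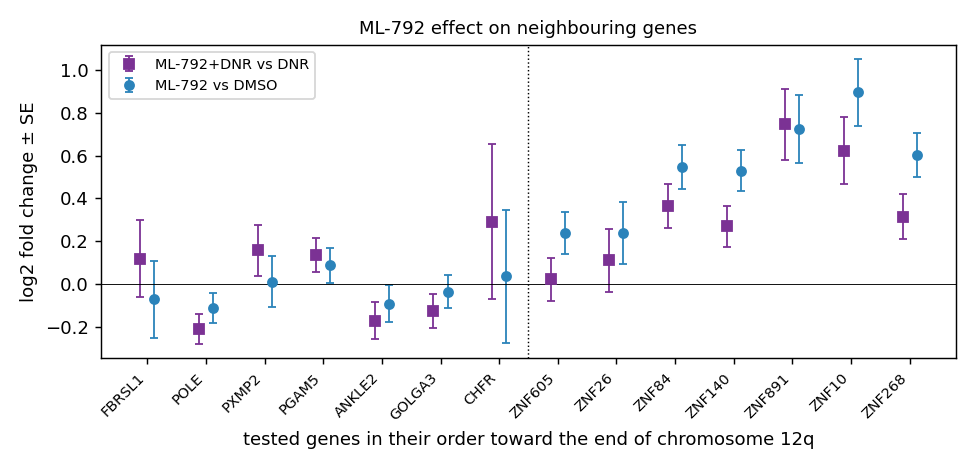
log2 fold change ± SE (vertical axis) of the 14 tested coding genes in and up to 500 kb before the chromosome 12 run, in their order toward the chromosome end (horizontal axis). Squares give ML-792+DNR vs DNR and circles ML-792 vs DMSO, and right of the dotted line the ZNF genes reach 0.89 at ZNF10, where the genes before it stay between −0.11 and 0.09 after ML-792 alone.

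The promoters of 4 of these genes are shown because both runs are represented in them and because the motif content of the members' promoters differed from that of all promoters searched. Each is the 250 bases before the annotated start, 5′ to 3′ on the gene's strand (RefSeq, GRCh38.p14), with matches to the searched motifs in capitals.

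ZNF274 (chr19:58182811-58183060, + strand): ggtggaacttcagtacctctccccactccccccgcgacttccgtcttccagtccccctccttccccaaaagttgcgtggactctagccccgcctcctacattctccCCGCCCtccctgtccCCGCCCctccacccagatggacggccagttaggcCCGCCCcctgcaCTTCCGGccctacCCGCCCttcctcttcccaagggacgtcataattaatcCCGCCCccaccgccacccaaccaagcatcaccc
ZNF134 (chr19:57613992-57614241, + strand): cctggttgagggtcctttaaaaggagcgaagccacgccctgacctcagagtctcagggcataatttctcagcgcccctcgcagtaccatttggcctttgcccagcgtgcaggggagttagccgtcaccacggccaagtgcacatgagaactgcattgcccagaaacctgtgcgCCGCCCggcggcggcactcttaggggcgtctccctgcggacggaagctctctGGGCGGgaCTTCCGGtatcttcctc
ZNF10 (chr12:133130377-133130626, + strand): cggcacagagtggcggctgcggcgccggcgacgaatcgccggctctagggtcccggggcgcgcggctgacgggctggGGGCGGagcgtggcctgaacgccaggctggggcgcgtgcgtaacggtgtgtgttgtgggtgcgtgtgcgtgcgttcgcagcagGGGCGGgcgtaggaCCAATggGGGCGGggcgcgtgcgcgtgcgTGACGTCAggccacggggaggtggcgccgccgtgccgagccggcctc
ZNF268 (chr12:133181245-133181494, + strand): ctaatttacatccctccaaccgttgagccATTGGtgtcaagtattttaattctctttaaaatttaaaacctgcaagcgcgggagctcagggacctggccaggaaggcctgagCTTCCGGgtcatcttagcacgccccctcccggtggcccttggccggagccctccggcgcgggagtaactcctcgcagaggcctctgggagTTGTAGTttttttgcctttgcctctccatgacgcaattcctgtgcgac

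The motifs searched on both strands were GGGCGG (an SP1 box), CCGGAAG (an ETS site), CCAAT (an NF-Y site), TGACGTCA (a CRE), TATAAA (a core promoter box), TGANTCA (an AP-1 site), AAGATGGC (YY1) and ACTACAA (part of the ZNF143 site), in windows from 250 bases before to 50 after the start. TGACGTCA and TGANTCA do not overlap as letters, and matches of different motifs may share bases. A promoter was matched for 197 members. The ETS letters were in 41.6% of them, beside 10.7% of all 27305 promoters in the table, and ACTACAA was in 7.61% beside 2.95%. GGGCGG was in 62.4% beside 44.6%, CCAAT in 45.2% beside 35.7%, TGACGTCA in 6.09% beside 1.98% and AAGATGGC in 4.57% beside 3.03%. TATAAA was rarer, in 3.05% beside 11.95%, and TGANTCA was in 6.09% beside 7.76%. Of the 6 members that rose after ML-792, 5 held GGGCGG (all but ZNF268), 3 held CCGGAAG (ZNF134, ZNF268 and ZNF274), 3 held CCAAT and 2 held ACTACAA (ZNF140 and ZNF268). The 27305 promoters include those of the members and were not limited to expressed genes. These shares therefore do not compare ZNF genes with other expressed genes. A match says only that the letters are there.

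DNR moved many more members, more of them down than up. Against DMSO, 53 members (23.04%) fell and 36 (15.7%) rose, where 15.7% of all genes tested fell and 14.3% rose, and the other 141 did not pass. At least 2-fold, 8 members (3.48%) fell and 1 (0.435%) rose, where 2.91% of all genes fell and 4.07% rose by that rule. The members' median was −0.06 on the log2 scale and that of all genes tested 0.01. Without DMSO replicate 1 the 36 that rose were 22, without DNR replicate 3 they were 23, and with replicates 2 and 3 only they were 21, with 28 that fell in place of 53. Over all genes tested the 1953 that rose were 1266, 1505 and 885 in the same fits, and the 2155 that fell were 1026 with replicates 2 and 3 only.

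The 8 that fell at least 2-fold were ZNF696, ZNF449, ZNF70, ZNF609, ZNF839, ZNF639, ZNF280B and ZNF692. ZNF609, a nuclear protein whose gene also gives a well known circular RNA, was the most abundant of them in DMSO. It had 33.4, 41.3 and 35.3 CPM in DNR, against 95.5, 78.8 and 89.2 CPM in DMSO (log2 fold change −1.26 ± 0.14, edgeR adjusted p = 2.51e-05). In the other pair it had 23.3, 36.5 and 31.4 CPM in ML-792+DNR, against 78.4, 73.3 and 74.7 CPM in ML-792 (log2 fold change −1.31 ± 0.14, edgeR adjusted p = 3.13e-05). All libraries with DNR were below all without it.

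ZNF696 had the largest fall, with 2.51, 3.16 and 2.25 CPM in DNR, against 7.12, 8.17 and 6.93 CPM in DMSO (log2 fold change −1.49 ± 0.17, edgeR adjusted p = 3.12e-05). ZNF449, a SCAN domain protein, had 2.57, 2.95 and 1.62 CPM in DNR, against 6.82, 5.45 and 7.14 CPM in DMSO (−1.44 ± 0.21, edgeR adjusted p = 0.000196). ZNF70 had 2.85, 3.88 and 4.27 CPM in DNR, against 10.2, 7.02 and 9.05 CPM in DMSO (−1.26 ± 0.19, edgeR adjusted p = 0.000285). These 3 were among the low members, and in each the DNR and DMSO libraries were separate.

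ZNF839 had 8.88, 10.7 and 10.2 CPM in DNR, against 21.5, 22.7 and 23.04 CPM in DMSO (−1.18 ± 0.13, edgeR adjusted p = 2.66e-05), and it overlaps CINP in the annotation. ZNF639 (ZASC1) had 27.8, 36.5 and 32.1 CPM in DNR, against 74.8, 65.4 and 66.5 CPM in DMSO (−1.10 ± 0.14, edgeR adjusted p = 6.19e-05). ZNF280B had 3.78, 6.89 and 4.15 CPM in DNR, against 9.97, 11.2 and 10.2 CPM in DMSO (−1.08 ± 0.25, edgeR adjusted p = 0.00571). For ZNF280B replicate 2 was the highest in both groups, and it was less than 2-fold lower without DNR replicate 1 or DNR replicate 3 (to −0.92 on the log2 scale).

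ZNF692 and ZNF672 are tail-to-tail neighbours on chromosome 1 (GRCh37 chr1:249144205-249153343, − strand, and chr1:249132409-249143716, + strand, with 488 bases between them), and DNR moved them in opposite directions. ZNF692 (AREBP), which binds an AICAR response element in gluconeogenic promoters, had 31.0, 36.3 and 30.1 CPM in DNR, against 68.9, 68.7 and 64.1 CPM in DMSO (−1.05 ± 0.09, edgeR adjusted p = 2.35e-06). ZNF672 had 29.0, 24.8 and 28.8 CPM in DNR, against 13.2, 12.8 and 14.2 CPM in DMSO (1.04 ± 0.13, edgeR adjusted p = 5.45e-05). Both pairs of groups were separate, and both stood so near 2-fold that ZNF692 was at −0.99 without DNR replicate 3 and ZNF672 at 1.00 without DNR replicate 1 or DMSO replicate 2.

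The 5 other members with the smallest p-values among those that rose were under 2-fold. ZNF597 had 25.7, 22.3 and 23.7 CPM in DNR, against 11.4, 12.5 and 12.3 CPM in DMSO (0.99 ± 0.10, edgeR adjusted p = 1.92e-05). ZNF367 had 86.7, 85.0 and 80.1 CPM in DNR, against 39.8, 48.6 and 40.6 CPM in DMSO (0.97 ± 0.12, edgeR adjusted p = 5.42e-05). ZNF189 (0.83 ± 0.09), ZNF436 (0.88 ± 0.10) and ZNF124 (0.61 ± 0.07) were the others, and none of these 5 had overlapping groups. Separate groups were again common: of all 230 members, 137 did not overlap between DNR and DMSO, and overlap was not counted over all genes.

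**Figure D3:**
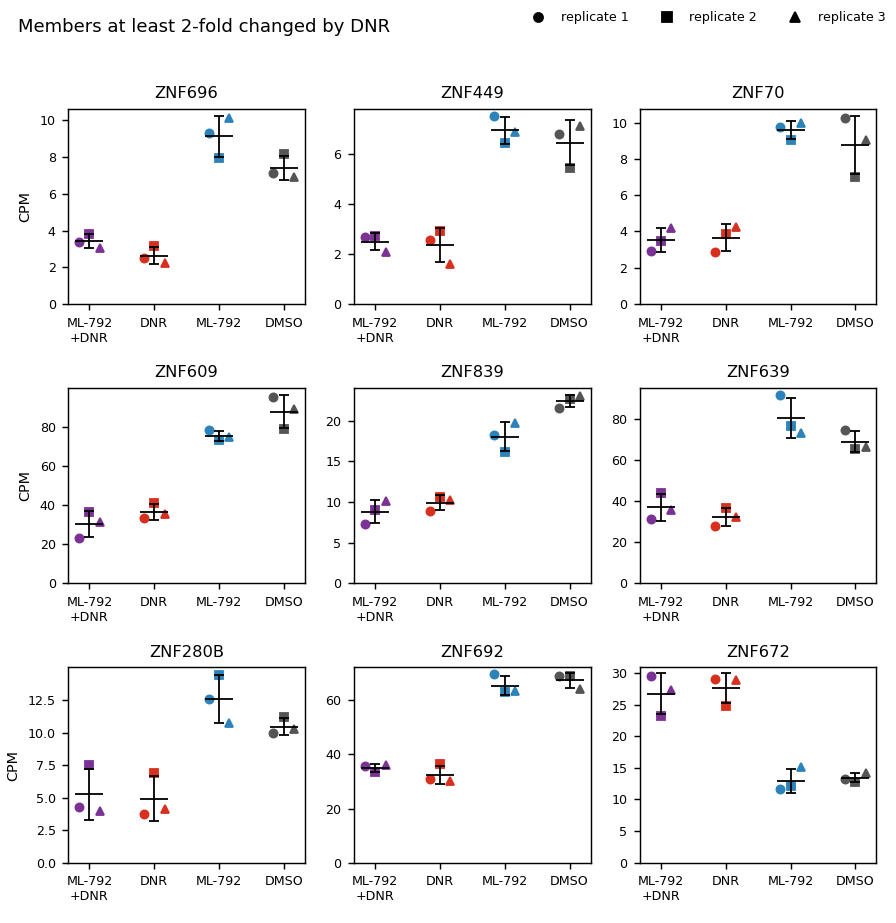
Level (vertical axis, CPM) of the 9 members at least 2-fold changed by DNR in the 4 groups, with 1 point per library and the mean ± SD (n = 3) as black bars. In each panel the ML-792+DNR and DNR points lie apart from the ML-792 and DMSO points, as with ZNF692 at 30.1 to 36.3 CPM in DNR and 64.1 to 68.9 CPM in DMSO.

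The effect of DNR in the presence of ML-792 can be read in libraries that the DNR and DMSO comparison did not use. ML-792+DNR against ML-792 gave 85 members (37.0%) that fell and 23 (10.0%) that rose, where 17.4% of all genes tested fell and 16.3% rose. At least 2-fold, 12 members (5.22%) fell and 1 (0.435%) rose, where 2.66% and 3.68% of all genes did. The members' median was −0.17, beside 0.02 for all genes tested. Of the 53 that fell with DNR alone, 49 fell here too (92.5% of the 53 and 57.6% of the 85), and of the 36 that rose, 21 rose here (58.3% of the 36 and 91.3% of the 23). No member rose in one comparison and fell in the other. Across the 230 members the log2 fold changes of the 2 comparisons had a Spearman correlation of 0.912, beside 0.822 across all 13696 genes, where genes are not independent replicates. The 13696 include genes at lower levels than the members, whose part in this difference was not tested. Without ML-792+DNR replicate 3 the 23 that rose were 15 (1586 of all genes in place of 2237), and with replicates 2 and 3 only 33 fell and 12 rose (996 and 759 of all genes).

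At least 2-fold, 7 of the 8 falls after DNR alone were repeated, and ZNF692 was the exception at −0.90 ± 0.09 (edgeR adjusted p = 1.44e-05). The 5 falls that were 2-fold only with ML-792 present were those of ZNF136, ZNF407, ZNF484, ZNF567 and ZNF691. ZNF407 had 9.55, 14.4 and 13.4 CPM in ML-792+DNR, against 29.5, 29.7 and 27.7 CPM in ML-792 (−1.22 ± 0.14, edgeR adjusted p = 5.69e-05), and it has the longest gene of the members at 513 kb. ZNF136 had 5.00, 10.4 and 7.96 CPM in ML-792+DNR, against 20.1, 15.8 and 16.2 CPM in ML-792 (−1.15 ± 0.21, edgeR adjusted p = 0.00146), and it was less than 2-fold lower without ML-792+DNR replicate 1 (−0.92). In DNR against DMSO the 5 were at −0.46 to −0.95, and the difference between the 2 effects passed the interaction test in none of the 5.

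Against DMSO, the 2 drugs together gave 73 members (31.7%) that fell and 24 (10.4%) that rose, where 18.4% of all genes tested fell and 17.0% rose. At least 2-fold, 8 members (3.48%) fell and 1 (0.435%) rose, where 2.56% and 3.93% of all genes did. The median was −0.13, beside 0.02 for all genes tested. Without ML-792+DNR replicate 1 the 73 falls were 48 (1836 of all genes in place of 2515), and with replicates 2 and 3 only they were 33, with 15 that rose (1251 and 881 of all genes). The 8 were ZNF484, ZNF609, ZNF449, ZNF839, ZNF70, ZNF407, ZNF691 and ZNF696. ZNF484, a KRAB protein, had the largest fall, with 1.64, 2.64 and 2.03 CPM in ML-792+DNR, against 6.67, 5.60 and 6.47 CPM in DMSO (−1.56 ± 0.19, edgeR adjusted p = 5.94e-05). Its DNR libraries were between these at 3.03, 3.19 and 4.08 CPM.

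The 1 member at least 2-fold higher with both drugs was ZNF503, a developmental repressor of the NET family. It had 13.1, 21.3 and 18.2 CPM in ML-792+DNR, against 7.47, 8.91 and 6.91 CPM in DMSO, with no overlap (1.18 ± 0.23, edgeR adjusted p = 0.00162). DNR alone gave 9.97, 17.1 and 13.4 CPM (0.80 ± 0.23, edgeR adjusted p = 0.0177) and ML-792 alone 7.69, 11.2 and 12.3 CPM (0.42 ± 0.23, edgeR adjusted p = 1). Smaller rises with both drugs were those of ZNF436 (0.91 ± 0.10), ZNF574 (0.96 ± 0.12), ZNF672 (0.99 ± 0.13), ZNF550 (0.67 ± 0.10) and ZNF124 (0.47 ± 0.07).

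**Figure D4:**
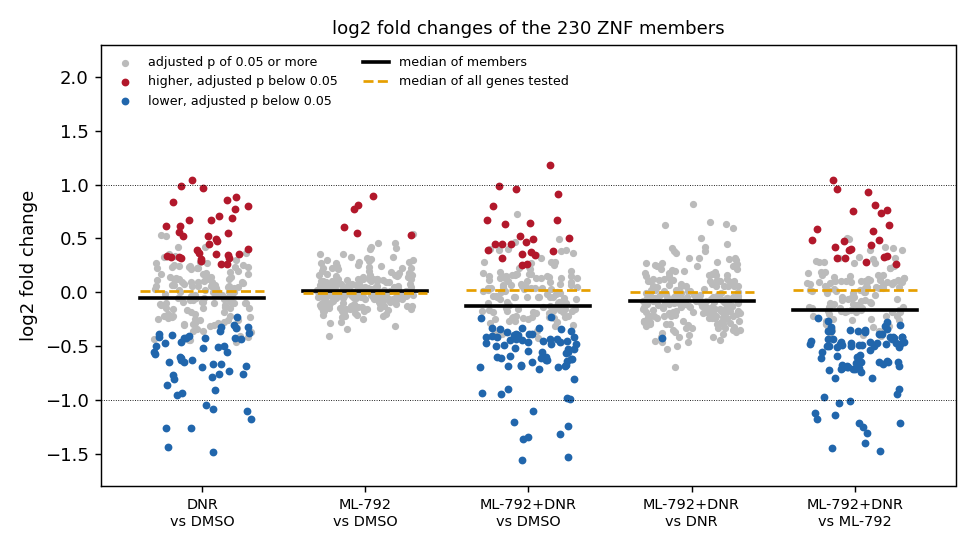
log2 fold change (vertical axis) of each of the 230 members in the 5 pairwise comparisons, with dotted lines at 2-fold. Red points rose and blue points fell, black bars give the members' median and dashed bars that of all genes tested, which lie apart at −0.17 and 0.02 in ML-792+DNR vs ML-792 and close together at 0.01 and −0.01 in ML-792 vs DMSO.

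With DNR present, few members passed the test for ML-792. ML-792+DNR against DNR had 157 members below 0 and 73 above, with a median of −0.08 beside 0.00 for all genes tested. By edgeR 1 member fell (0.435%; 11 by DESeq2, 2 by limma voom, which called 229 and 80 of all genes lower), where 0.489% of all genes did. None rose (14 at an unadjusted p below 0.05 with a rise, 5 by DESeq2, 0 by limma voom), where 0.256% of all genes did. No member reached 2-fold, where 0.0949% of all genes were higher and 0.102% lower by that rule. Replicate numbers paired these libraries (correlation of same-numbered deviations 0.585 to 0.784), and with a replicate block 11 members fell and 6 rose, where 2.29% of all genes fell and 1.65% rose by that fit. The 1 that fell was ZNF92, a KRAB protein, with 32.1, 32.8 and 32.4 CPM in ML-792+DNR, against 42.8, 43.7 and 44.3 CPM in DNR (−0.43 ± 0.08, edgeR adjusted p = 0.0383, and 0.0118 with the block). Leaving out 10 of the 12 libraries 1 at a time, all but ML-792 replicate 1 and ML-792 replicate 3, took ZNF92 above the threshold of the test (edgeR adjusted p up to 0.127), while its log2 fold change stayed at −0.44 to −0.42.

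The largest changes in this comparison whatever the test were those of ZNF593 (0.82), ZNF581 (0.65) and ZNF134 (0.64) up and ZNF484 (−0.70), ZNF136 (−0.53) and ZNF687 (−0.50) down. ZNF593, a factor of ribosome assembly, varied widely between replicates, with 29.1 ± 8.47 CPM in ML-792+DNR and 16.5 ± 1.96 CPM in DNR (SD, n = 3 each, edgeR adjusted p = 0.492). ZNF687 is a partner of ZMYND8 and a fusion partner of RUNX1 in AML. It had 24.95, 20.9 and 25.3 CPM in ML-792+DNR, against 34.7, 31.6 and 34.2 CPM in DNR, with no overlap (edgeR adjusted p = 0.0502, and 0.0114 with the block).

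ZNF217, an oncoprotein that works with the CoREST and CtBP corepressors, rose after DNR and was lower after ML-792, in the second case past the test with a replicate block and by DESeq2 but not by edgeR without the block. It had 66.6, 59.7 and 73.3 CPM in DNR, against 46.2, 47.0 and 48.9 CPM in DMSO (0.49 ± 0.10, edgeR adjusted p = 0.00308). It had 35.3, 33.1 and 38.8 CPM in ML-792, the largest decrease of the members in that comparison (−0.40 ± 0.10, edgeR adjusted p = 0.223, and 0.0127 with the block). With both drugs it had 48.4, 44.6 and 56.7 CPM, which overlapped DMSO (0.08 ± 0.10, edgeR adjusted p = 0.601) and lay below DNR (−0.42 ± 0.10, edgeR adjusted p = 0.0869, and 0.00597 with the block).

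Whether ML-792 acted differently with and without DNR was tested as an interaction. No member passed (11 at an unadjusted p below 0.05, all of them below 0, and 0 by DESeq2, 0 by limma voom and 0 with a replicate block). None of the 13696 genes passed by edgeR without the block, and 493 of them were at an unadjusted p below 0.05. Over all genes DESeq2 called 3 higher and 11 lower, and edgeR with the block called 1 lower. The interaction was below 0 in 175 of 230 members, with a median of −0.11 beside 0.00 for all genes tested. It uses the DMSO values that chose the members, and its sign was not counted over all genes. ML-792 vs DMSO and ML-792+DNR vs DNR share no libraries, and across the 230 members their log2 fold changes had a Spearman correlation of 0.556, beside 0.322 across all 13696 genes. Here too the wider set includes genes at lower levels. All 6 members that rose after ML-792 alone were above 0 with DNR present, with a median of 0.48.

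**Figure D5:**
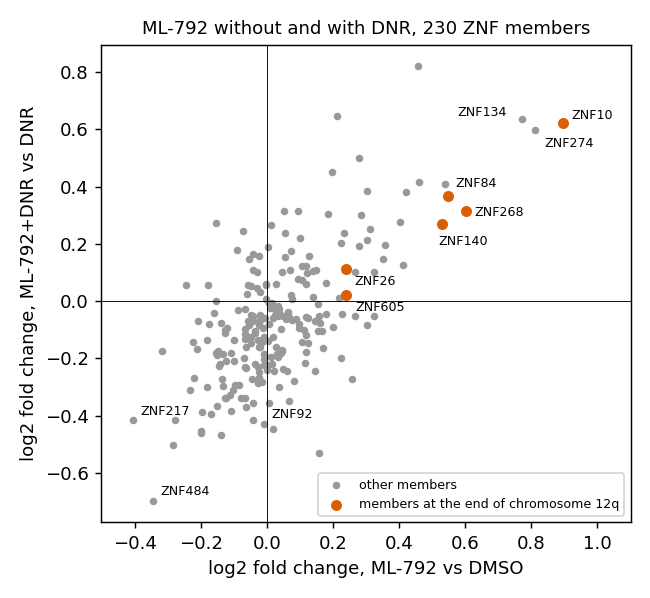
log2 fold change after ML-792 without DNR (horizontal axis, ML-792 vs DMSO) and with DNR (vertical axis, ML-792+DNR vs DNR), 1 point per member. The 6 members of the chromosome 12 run, in orange, are above 0 on both axes, with ZNF10 at 0.89 and 0.62.

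By role, the chromatin complex partners among the members (9 of 16 listed) were split after DNR, with 3 that rose (ZNF217, ZNF335 and ZNF687) and 3 that fell (ZNF512B, ZNF516 and ZNF592), and a median of 0.06. For comparison with this list and those below, 14.3% of all genes tested rose and 15.7% fell after DNR. With both drugs against DMSO 17% rose and 18.4% fell, and no list was tested as a set. ZNF335, a subunit of a histone methyltransferase complex, averaged 54 ± 8.4 CPM in DNR and 33.5 ± 0.841 CPM in DMSO (SD, n = 3 each; 0.69 on the log2 scale, edgeR adjusted p = 0.00217). ZNF512B, a transcriptional repressor, averaged 18.3 ± 3.45 CPM in DNR and 31.2 ± 3.53 CPM in DMSO (−0.76, edgeR adjusted p = 0.00135). With both drugs against DMSO 1 rose and 4 fell, and no listed member passed in either comparison of ML-792.

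Among the 9 activators and promoter factors, ZNF24, ZNF263 and ZNF281 rose and ZNF384 fell after DNR. ZNF24 averaged 399 ± 23.2 CPM in DNR and 315 ± 5.68 CPM in DMSO (0.34, edgeR adjusted p = 0.00872). With both drugs against DMSO only ZNF263 rose, and ZNF143, ZNF148, ZNF384 and ZNF410 fell, with a median of −0.27. ZNF143 binds promoters at the ends of chromatin loops, and ZNF410 is known for activating CHD4. ZNF384, a fusion partner in B cell leukemia, averaged 68.7 ± 4.63 CPM in ML-792+DNR and 105 ± 6.57 CPM in DMSO (−0.61, edgeR adjusted p = 8.99e-05). After ML-792 alone none passed.

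Of the 11 members that encode RNA, ribosome and spindle proteins (12 listed), ZNF830 rose and ZNF106 and ZNF346 fell after DNR. With both drugs against DMSO ZNF106 and ZNF277 fell and none rose. Of the 6 KRAB members with known repeat or gene targets (16 listed), ZNF10, ZNF268 and ZNF274 rose after ML-792, with a list median of 0.40, and ZNF587 fell after DNR (−0.43, edgeR adjusted p = 0.015). By the wider KRAB pattern, 4 of 102 members with a KRAB box and 1 of 121 without rose after ML-792, as did 1 of the 7 with no protein read. Over all genes tested 0.183% rose after ML-792. After DNR 22 of the 102 and 30 of the 121 fell, where 23.04% of all 230 members and 15.7% of all genes tested did.

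The corepressors through which KRAB proteins act were measured as well. Of 29 tested genes (30 listed, 2 of them names of 1 gene), none passed after ML-792 alone, and 3 rose and 6 fell after DNR, none of them 2-fold, with a median of −0.05. Over all genes tested 14.3% rose and 15.7% fell after DNR. SETDB1, the methyltransferase of the complex, averaged 59.4 ± 5.94 CPM in DNR and 90.7 ± 4.73 CPM in DMSO (−0.61, edgeR adjusted p = 0.000852). EHMT1 and EHMT2, which methylate the same histone residue, fell by 0.78 and 0.61 on the log2 scale (edgeR adjusted p = 6.69e-05 and 0.000247). FAM208A, SMARCAD1 and SUV39H1 also fell. The 3 that rose after DNR were ATF7IP (0.26, edgeR adjusted p = 0.0208), CHD4 (0.29, edgeR adjusted p = 0.0416) and RBBP7 (0.27, edgeR adjusted p = 0.0101). TRIM28 averaged 452 ± 31.3 CPM in DNR and 399.5 ± 4.29 CPM in DMSO (0.18, edgeR adjusted p = 0.118).

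The other C2H2 families at the same level (51 ZSCAN, ZKSCAN, ZBTB and ZFP genes) had 15 falls and 13 rises after DNR, with a median of −0.02, 17 falls and 9 rises with both drugs against DMSO, with a median of −0.17, and 13 falls and 11 rises in ML-792+DNR vs ML-792, with a median of −0.04. None rose after ML-792 alone and ZBTB14 fell (−0.72, edgeR adjusted p = 0.0113). ZNF genes under the threshold that could be tested (132 of 263) had 12 falls and 9 rises after DNR with a median of −0.04, and none of either after ML-792, with a median of 0.08. Over all genes tested, 15.7% fell and 14.3% rose after DNR, and 18.4% and 17% with both drugs against DMSO. In ML-792+DNR vs ML-792 these shares were 17.4% and 16.3%.

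Within the members, gene length went weakly with the changes in several comparisons. The Spearman correlation of the gene's span with the log2 fold change was −0.150 in DNR vs DMSO, −0.225 in ML-792+DNR vs ML-792, −0.232 in ML-792+DNR vs DMSO, −0.150 in ML-792+DNR vs DNR and −0.0188 in ML-792 vs DMSO (n = 227 members), and 0.0093 for the number of fingers in DNR vs DMSO (n = 223). These are descriptions across genes of the same libraries, and span goes with other features of the gene.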

How the data were processed

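Polyadenylated RNA of 12 libraries was compared per gene. The authors aligned to hg19 with TopHat2 2.1.1 (Bowtie2 2.3.5.1) and used HTSeq 0.11.1 for raw counts per gene, as deposited. The 5 counter lines were left out here. A deposited table of normalized signal equals the counts over a size factor for each library, from 0.843 to 1.33, and served to choose the members. The authors' table of group means, fold changes and p-values was not used.

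Counts were fitted with edgeR 4.0.16 (quasi-likelihood, TMM, filterByExpr with a minimum count of 10 and total of 15, group term, all 12 libraries) in R 4.3.3, tested on simulated data, with Benjamini-Hochberg adjustment over 13696 genes. Comparisons that share a group share its libraries. The alternatives were DESeq2 1.42.0, limma 3.58.1 voom, other scalings, filters, fold minimums and member thresholds, a replicate block, the compared groups only, and leaving out each library. Replicates 2 and 3 only was added after seeing the data. No exact permutation test was run, since with 3 replicates in each group its smallest p is 0.1.

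The members and lists were chosen with earlier results of these data known. Members named are those called at 2-fold, the 5 smallest p-values and 3 largest changes in each direction, the 5 most abundant, those next to the threshold, and called or abundant members of the role lists. Runs of genes and their neighbours were picked after their values were seen. The study's methods name 3 independent experiments but do not say that replicate numbers link the groups. Numbers were taken to pair 2 groups compared where all same-numbered deviations correlated above 0.1, which held for each pairwise comparison except DNR vs DMSO (0.0877 to 0.562). Positions are from GENCODE 44 on GRCh37.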

Additional observations from a re-analysis of the deposited data

How the results depend on the processing

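Counts here are of members at least 2-fold changed at an adjusted p below 0.05 unless said otherwise. With no fold minimum the members higher and lower were 36 and 53 in DNR vs DMSO, 24 and 73 in ML-792+DNR vs DMSO and 23 and 85 in ML-792+DNR vs ML-792, with 6 higher in ML-792 vs DMSO and 1 lower in ML-792+DNR vs DNR. At 1.5-fold these were 14 and 28, 9 and 33, and 9 and 39, with 4 higher in ML-792 vs DMSO. A DMSO threshold of 100 normalized counts gave 2 higher in DNR vs DMSO and 2 in ML-792+DNR vs ML-792. A threshold of 400 gave 4 lower in DNR vs DMSO, 0 higher and 4 lower in ML-792+DNR vs DMSO, and 7 lower in ML-792+DNR vs ML-792. Members by the 12-library mean gave 5 lower in ML-792+DNR vs DMSO. Replicates 2 and 3 only gave 0 higher and 5 lower in DNR vs DMSO, and 0 higher and 7 lower in ML-792+DNR vs ML-792. The cause was not tested. Leaving out 1 library gave 0 to 2 higher in DNR vs DMSO, 1 to 2 in ML-792+DNR vs DMSO and 0 to 3 in ML-792+DNR vs ML-792. Counts over all genes at the same fold are not given for the 1.5-fold rule or for fits with libraries left out. These member counts therefore do not tell ZNF genes from other genes. With a replicate block 10 members were lower in ML-792+DNR vs DMSO in place of 8, and the other 2-fold counts were unmoved. With no fold minimum, a replicate block gave 36 members higher and 90 lower in ML-792+DNR vs DMSO (3361 and 3347 of all genes) and 33 and 96 in ML-792+DNR vs ML-792 (3203 and 3187). In DNR vs DMSO, where 1 same-numbered correlation was under 0.1, it gave 52 and 71 (2778 and 2989 of all genes, in place of 1953 and 2155). In ML-792+DNR vs DNR with no fold minimum, DESeq2 gave 5 higher and 11 lower (133 and 229 of all genes), in place of 0 and 1 (35 and 67).

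Of 51 pairs of a named member and a comparison, 36 stayed past their threshold in every one of 21 alternatives, and none of the 1071 values changed sign. DESeq2, limma voom and median-of-ratios factors lost none of the 51. The 51 were picked because they passed in the main fit, and the alternatives reuse the same libraries. They therefore show the part of processing and of single libraries, and do not test the results anew. Low members such as ZNF484 and ZNF449 had counts as low as 50 in a library, which limits the precision of their folds.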
